A study of Homo sapiens with 12 samples.

Results

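Long intergenic non-coding RNAs whose gene symbol is LINC followed by a number only were followed in the human promyelocytic leukaemia cell line HL-60 treated with the DNA methyltransferase inhibitor decitabine or with its vehicle DMSO. Members were chosen by level: the symbol had that form and the deposited normalised count was at least 30 in 2 or more of the 11 libraries that carry values. This gave 129 members among 2121 LINC symbols and 60240 genes in all, and 709 LINC symbols were at 0 in every library. These same normalised counts are the values the members were selected on, so high levels are not a finding, and a member could enter through the decitabine libraries alone. That was so for 35 members, which reached 30 in at least 2 decitabine libraries and in at most 1 DMSO library. A further 85 reached 30 in at least 2 libraries of each kind, 2 did so only with DMSO and 7 needed 1 library of each.

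The cells had a wild-type genotype and were plated in duplicate. Decitabine was given at 100 nM at 0, 24 and 48 h, and RNA was taken at 6, 72 and 120 h, so that the 6 h samples had received only the first addition. The labels list 12 samples in 6 groups, one for each treatment and time, and the DMSO 72 h group is represented here by 1 library. Total RNA was depleted of ribosomal RNA and sequenced as stranded single-end libraries, which also capture RNAs without a poly(A) tail. The duplicates are wells of one line, and the p-values reflect the spread between those wells alone, part or all of which may be technical.

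Long intergenic non-coding RNAs are transcribed by RNA polymerase II from stretches between protein-coding genes, and they are usually capped, spliced and present at low copy number. Many are made in only a few cell types, and a small number have a known role, such as scaffolding chromatin regulators, hosting a microRNA or acting on a neighbouring gene. A LINC symbol is a placeholder given to such a transcript before a function is known, and some are renamed later. Once replicating cells incorporate decitabine, a cytidine analogue, into their DNA, it traps DNA methyltransferases, and methylation is lost over cell divisions.

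The label was checked against 2 annotations. All 129 members were found in RefSeq, 115 by symbol and 14 by an older name, and 128 in GENCODE 29, whose release is not that of the authors' table. GENCODE called 100 of them lincRNA, 13 processed transcripts, 6 antisense RNAs, 2 RNAs from a bidirectional promoter, 5 unprocessed and 1 unitary transcribed pseudogenes and 1, LINC02693, protein-coding. The word intergenic was therefore not true of every member. An exon was shared with another gene on the same strand for 25 members and on the other strand for 35, or on either strand for 51, and reads of such pairs cannot be told apart where the counting is not stated to use strand. RefSeq now lists 7 members as divergent transcripts of a named gene and 2 as antisense to one. Of named members, LINC00551 is ARGLU1-DT, LINC00599 is MIR124-1HG, the host of a microRNA of the miR-124 family, and LINC01578 is CHASERR, which lies beside the chromatin remodeller gene CHD2.

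The start regions of the 5 members called at both later times, and of the only member called lower, are shown because they differ widely in how many CG pairs they hold. Each is the RefSeq window from 250 bases before to 50 bases after the annotated start in GRCh38.p14, read 5′ to 3′ on the gene's strand, with each CG in capitals.
LINC01344: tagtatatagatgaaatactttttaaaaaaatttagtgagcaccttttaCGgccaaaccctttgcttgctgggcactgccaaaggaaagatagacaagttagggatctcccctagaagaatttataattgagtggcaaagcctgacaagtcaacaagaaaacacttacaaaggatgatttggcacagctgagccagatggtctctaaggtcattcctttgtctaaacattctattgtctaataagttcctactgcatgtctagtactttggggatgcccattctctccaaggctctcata
LINC01140: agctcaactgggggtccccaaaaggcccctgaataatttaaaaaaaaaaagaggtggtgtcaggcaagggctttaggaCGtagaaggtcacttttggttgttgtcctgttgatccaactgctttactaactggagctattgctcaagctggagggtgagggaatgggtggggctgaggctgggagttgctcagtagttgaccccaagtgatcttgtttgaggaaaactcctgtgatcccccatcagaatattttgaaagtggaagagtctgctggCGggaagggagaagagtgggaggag
LINC01088: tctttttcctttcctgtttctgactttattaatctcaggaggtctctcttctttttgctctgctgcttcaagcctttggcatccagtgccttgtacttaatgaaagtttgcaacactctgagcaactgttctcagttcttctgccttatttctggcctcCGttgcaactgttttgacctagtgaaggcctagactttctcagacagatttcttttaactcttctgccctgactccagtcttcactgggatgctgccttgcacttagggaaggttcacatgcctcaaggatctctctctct
LINC01094: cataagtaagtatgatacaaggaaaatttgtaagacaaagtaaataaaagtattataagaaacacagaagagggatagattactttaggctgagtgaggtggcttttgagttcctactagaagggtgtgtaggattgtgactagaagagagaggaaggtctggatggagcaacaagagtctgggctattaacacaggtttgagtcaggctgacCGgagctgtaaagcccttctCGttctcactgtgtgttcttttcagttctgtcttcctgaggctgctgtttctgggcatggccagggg
LINC00963: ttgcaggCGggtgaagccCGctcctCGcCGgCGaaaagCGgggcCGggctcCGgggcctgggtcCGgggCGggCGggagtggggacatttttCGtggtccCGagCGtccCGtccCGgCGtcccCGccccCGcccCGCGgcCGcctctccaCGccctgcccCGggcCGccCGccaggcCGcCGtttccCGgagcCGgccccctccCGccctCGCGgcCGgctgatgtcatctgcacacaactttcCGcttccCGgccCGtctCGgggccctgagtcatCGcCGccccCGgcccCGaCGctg
LINC00551: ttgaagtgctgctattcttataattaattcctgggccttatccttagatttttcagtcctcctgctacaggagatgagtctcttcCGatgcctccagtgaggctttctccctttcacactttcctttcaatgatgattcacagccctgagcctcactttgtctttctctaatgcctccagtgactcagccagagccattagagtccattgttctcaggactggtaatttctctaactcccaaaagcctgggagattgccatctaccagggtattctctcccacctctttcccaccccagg
The windows lie at chr1:182314012-182314311 on the minus strand for LINC01344, chr1:87129515-87129814 on the plus strand for LINC01140, chr4:78971498-78971797 on the plus strand for LINC01088, chr4:78645744-78646043 on the plus strand for LINC01094, chr9:129488410-129488709 on the plus strand for LINC00963 and chr13:106617560-106617859 on the plus strand for LINC00551.

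LINC01344, LINC01088 and LINC00551 had 1 CG each in these 300 bases, LINC01140 and LINC01094 had 2 each, and LINC00963 had 43. RefSeq windows were found for 87 of the 129 members. Their median was 7 CG pairs, against 5 over 11462 lncRNA windows and 13 over 27305 windows of all genes. An observed to expected CG ratio of 0.6 or more, the usual mark of a CpG island, was found in 40.2% of the members' windows, 25.7% of lncRNA windows and 48.8% of all windows. Of the 13 members that rose at 120 h, 8 had a window. Their median was 3 CG pairs, and 2 of 8 windows, those of LINC00963 and LINC01089 (24 CG pairs), reached the ratio of 0.6. The TATA motif TATAAA, searched on both strands, was in 13.8% of members' windows and 12.02% of all windows, and in 2 of the 8 windows of members that rose, those of LINC01091 and LINC01344. The motif AGATAA, a form of the GATA factor site, was searched in the same way and was in 8.05% of members' windows, 10.5% of all windows and none of those 8. These are counts of letters in a window and do not show methylation or binding.

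Members were mostly low. The median of the members' means over the 11 libraries was 46.5 normalised counts, with a range from 13.4 for LINC01366 to 527 for LINC00662. Of the 129, 70 had a mean under 50, 34 a mean of at least 100 and 19 a mean of at least 200, and 49 were at 30 or more in all 11 libraries. By mean normalised count, the most abundant were LINC00662, LINC00667 (478), LINC02503 (377), LINC00680 (370), LINC00909 (342), LINC00926 (341), LINC01145 (297) and LINC00342 (290). These counts grow with transcript length. Per kilobase of GENCODE 29 exon, LINC02503 was highest at 464, followed by LINC01608 at 177, LINC01609 at 136 and LINC00680 at 125. LINC00662, the first by count, ranked 17 per kilobase.

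The members' summed normalised counts, with LINC01145 left out because a single library held most of its signal, were 8987 to 10160 in the 5 DMSO libraries. They were 9482 and 9640 with decitabine at 6 h, and 11520 to 15770 in the 4 decitabine libraries of 72 and 120 h. These sums use the values that chose the members, and members that passed the threshold only with decitabine had to be higher there, so they are a description. The 84 members that passed it under both treatments, again without LINC01145, summed to 8215 to 9368 with DMSO, 8545 to 8817 with decitabine at 6 h and 10020 to 13680 with decitabine at 72 and 120 h. The 35 that passed it only with decitabine summed to 606 to 659, 662 to 789 and 1312 to 1733. With LINC01145 kept, DMSO 120 h replicate 2 (12080) exceeded decitabine 72 h replicate 1 (11620). LINC01709 and LINC00649, far higher in decitabine 72 h replicate 2 than in its duplicate, were kept in the sums. That library, which gave the highest sum, also had the largest normalised total. It was 15959030, against 12815698 to 14978995 in the others. In these bulk libraries, more or fewer cells of a type and more or less RNA per cell cannot be told apart.

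**Figure D1:**
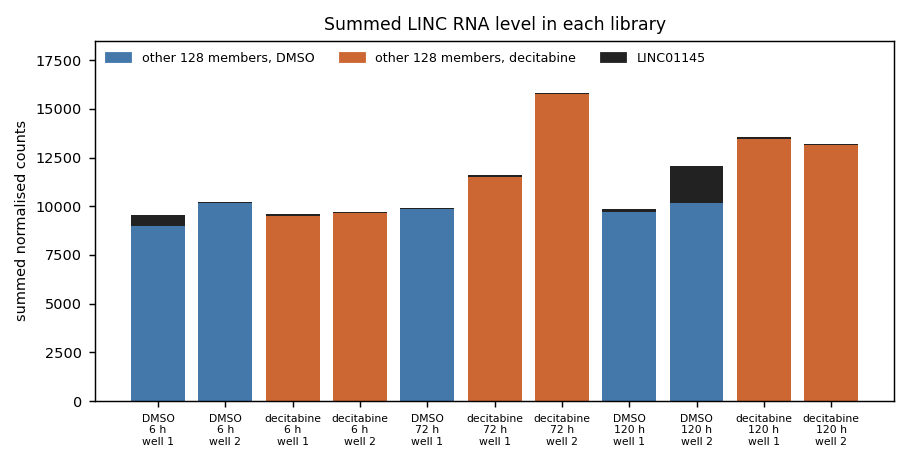
Summed normalised counts of the 129 LINC RNAs in each of the 11 libraries, with 1 bar per library, DMSO in blue, decitabine in orange and LINC01145 in black. Without LINC01145, the late decitabine bars reach 11520 to 15770 and the DMSO bars 8987 to 10160. With it, the bar of DMSO 120 h replicate 2 (12080) is above that of decitabine 72 h replicate 1 (11620).

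At 6 h, no member was called different between decitabine and DMSO. A call here is an adjusted p below 0.05 from limma on log2(value + 1), with adjustment over all 16152 genes tested. The background was 0.0% of all genes called in either direction. At an unadjusted p below 0.05 there were 2 members higher and 1 lower, where 263 and 278 of all genes were. The median log2 difference was 0.01. Both decitabine libraries lay above both DMSO libraries for 18 members and below them for 21, against 18.2% and 20.8% of all genes.

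The widest differences at 6 h belonged to members with low or scattered values. LINC02482 had 7.39 and 9.76 normalised counts with DMSO and 25.2 and 22.7 with decitabine. Its groups did not overlap, with a log2 difference of 1.39 (SE 0.60, adjusted p = 1). LINC00499 had 40.1 and 33.4 with DMSO and 14.9 and 20.5 with decitabine, a log2 difference of -1.03 (SE 0.43, adjusted p = 1). LINC01176 and LINC01220 each owed their position to 1 library. LINC01176 had 50.8 and 0.95 in the decitabine wells and 3.24 and 3.52 in the DMSO wells, and LINC01220 had 1.85 and 55.9 in the DMSO wells and 0.62 and 1.37 in the decitabine wells. The log2 difference of LINC01176 was 1.198 (SE 1.56, adjusted p = 1) and became -1.17 without decitabine 6 h replicate 1. That of LINC01220 was -2.70 (SE 1.89, adjusted p = 1) and became -0.54 without DMSO 6 h replicate 2.

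At 72 h, 5 members rose and 0 fell, against 1.88% of all genes called higher and 0.31% called lower. The share of members called higher was 3.88%. At an unadjusted p below 0.05, 28 members were higher and 4 lower, where 1793 and 1126 of the 16152 genes tested were. The median log2 difference was 0.36 over the members and 0.09 over all genes tested. Above 0 lay 88 of 129 members (68.2%) and 55.5% of all genes. The rule favours members that are high with decitabine, so the 72 h values were also split by entry. Among the 85 members that entered through both kinds of library, 3 rose, 0 fell, 55 lay above 0 and the median was 0.35. Among the 35 that entered through decitabine alone, 2 rose, 0 fell, 27 lay above 0 and the median was 0.39. The rise of those 2 is not independent of the rule. The DMSO group of this time has 1 library, whose spread was taken to equal that of the other groups. Without decitabine 72 h replicate 1 the members' median was 0.49, against 0.14 over all genes. Without decitabine 72 h replicate 2 it was 0.23, against 0.06. In those 2 fits neither 72 h group holds a pair, so the spread comes from the other times. Without either DMSO 6 h, decitabine 6 h or decitabine 120 h library, fewer members were called higher, and fewer than 1.88% of all genes were.

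By 120 h, 13 members rose and 1 fell. The background was 9.91% of all genes called higher and 6.0% called lower, and the members' shares were 10.1% and 0.775%. The share that rose was thus near the background, and the share that fell was below it. The median log2 difference was 0.37 over the members and 0.07 over all genes. Above 0 lay 101 of the 129 members (78.3%) and 54.1% of all genes. Both decitabine libraries lay above both DMSO libraries for 64 members (49.6%), where the background was 36.1%, and below them for 9 (6.98%), where it was 30.6%. The rule favours members that are high with decitabine, so these counts were also taken by how members entered. Among the 85 that reached 30 in both kinds of library, 6 rose, 1 fell, the median was 0.20 and the groups were separate for 34 upward and 7 downward. Among the 35 that entered through decitabine, 7 rose, none fell and the median was 1.06. These 7 were LINC01344, LINC01140, LINC01647, LINC02580, LINC01091, LINC01366 and LINC00467. The rule chose them for being high with decitabine, so their rise is not independent of that choice.

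How far the members as a whole lay above 0 depended on the scaling. Quantile normalisation moved the median of all genes at 120 h by -0.17 and left 68 of 129 members above 0, with 12 called higher and 1 lower. Scaling to the same total moved it by 0.12 and left 105 above 0, with 14 and 1 called. Measured from the median of all genes, the members' median at 120 h was 0.30 as deposited, 0.14 after quantile normalisation and 0.31 with equal totals. Of all genes called at 120 h, 62.3% were higher as deposited, 50.8% after quantile normalisation and 73.0% with equal totals. At 72 h these shares were 85.8%, 74.5% and 68.2%, and the members' median above that of all genes was 0.27, 0.18 and 0.26. Fewer members rose at 120 h when either decitabine 120 h library was left out, and fewer than 9.91% of all genes did. More members rose and more fell without either decitabine 72 h library. The last fits called 15.8% of all genes higher and 14.8% lower, against 17.1% and 2.33% of the members.

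**Figure D2:**
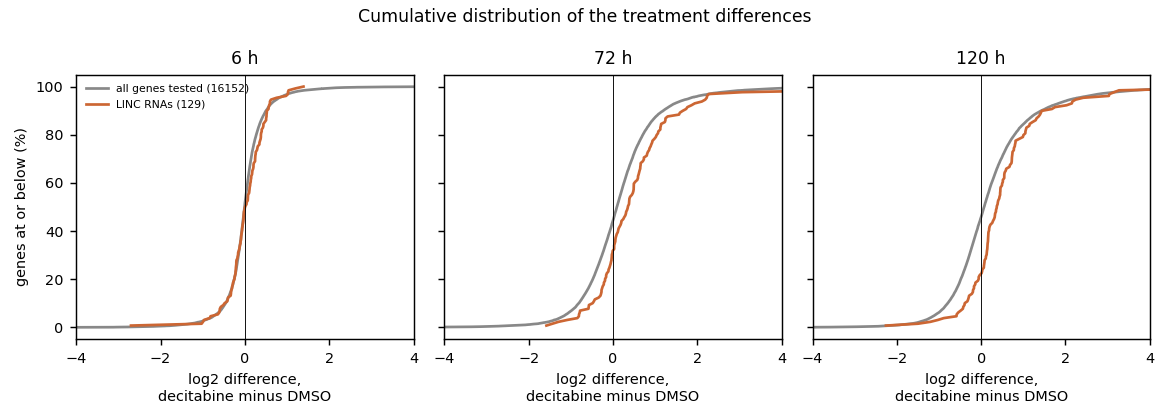
Cumulative share of genes (%) against the log2 difference of decitabine minus DMSO at 6, 72 and 120 h, for the 129 LINC RNAs (orange) and the 16152 genes tested (grey), with values beyond 4 in size outside the axis. The lines overlie each other at 6 h, and at 120 h the LINC line lies to the right, with medians of 0.37 and 0.07. The LINC line includes 35 members that entered through decitabine alone, in which the rule favoured a rise.

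LINC01344 and LINC01140, both on chromosome 1 but 95034741 bases apart, went from a few normalised counts to the levels of common members. Both entered the members through the decitabine libraries alone, so the rule favoured a rise in them. LINC01344 had 1.08 and 0 with DMSO at 6 h, 1.88 at 72 h and 0.97 and 0.53 at 120 h. With decitabine it had 0.48 and 0 at 6 h, 368 and 195 at 72 h and 66.5 and 77.8 at 120 h. All 4 late decitabine libraries lay far above the other 7, and the 72 h pair lay above the 120 h pair. Its log2 difference was 6.54 (SE 0.68, adjusted p = 0.0032) at 72 h and 5.39 (SE 0.55, adjusted p = 0.000637) at 120 h. The DMSO values stand for 0 to 3.77 estimated reads a library, so no ratio is given.

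LINC01140 had 6.01 and 0.74 with DMSO at 6 h, 2.76 at 72 h and 4.04 and 3.05 at 120 h. In the decitabine wells it had 3.15 and 3.77 at 6 h, 126 and 192 at 72 h and 169 and 167 at 120 h. The late decitabine libraries were again separate from the rest, at much the same level at both times. The log2 difference was 5.38 (SE 0.75, adjusted p = 0.0118) at 72 h and 5.23 (SE 0.61, adjusted p = 0.00121) at 120 h. GENCODE 29 places an exon of AC093155.3 over LINC01140 on the same strand.

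LINC01088 and LINC01094 lie 287247 bases apart on chromosome 4 and both rose at both times. LINC01088, which GENCODE classes as antisense and whose locus overlaps that of the acetyltransferase gene NAA11, had 51.0 and 64.3 normalised counts with DMSO at 6 h, 45.0 at 72 h and 33.0 and 35.8 at 120 h. With decitabine it had 53.4 and 44.9 at 6 h, 213 and 215 at 72 h and 354 and 327 at 120 h. The duplicates agreed closely, and both late decitabine pairs stood above every other library. The log2 difference was 2.22 (SE 0.27, adjusted p = 0.00635) at 72 h and 3.27 (SE 0.22, adjusted p = 0.000106) at 120 h, the smallest adjusted p of any member.

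LINC01094 had 38.4 and 43.9 with DMSO at 6 h, 16.8 at 72 h and 19.2 and 29.8 at 120 h. Its decitabine libraries held 33.4 and 46.6 at 6 h, 68.9 and 98.6 at 72 h and 137 and 128 at 120 h. The late decitabine values did not overlap with any DMSO value, while the 6 h pairs did overlap. The log2 difference was 2.23 (SE 0.40, adjusted p = 0.0307) at 72 h and 2.42 (SE 0.32, adjusted p = 0.0021) at 120 h. The 72 h call was lost in 6 of 10 fits that left out a library, with adjusted p up to 0.0799 without decitabine 120 h replicate 2.

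LINC00963, with the CG-rich start shown above, completed the group called at both times. It had 52.2 and 32.5 with DMSO at 6 h, 36.9 at 72 h and 32.4 and 36.1 at 120 h. With decitabine its values were 46.2 and 44.1 at 6 h, 113 and 165 at 72 h and 107 and 129 at 120 h. The late decitabine values lay above all others. Its log2 difference was 1.86 (SE 0.38, adjusted p = 0.0476) at 72 h and 1.75 (SE 0.31, adjusted p = 0.00717) at 120 h. The 72 h call was lost in 9 of 10 fits that left out a library, with adjusted p up to 0.107 without either decitabine 120 h library, and the 120 h call in 1 of 11, with 0.0671 without decitabine 120 h replicate 2.

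**Figure D3:**
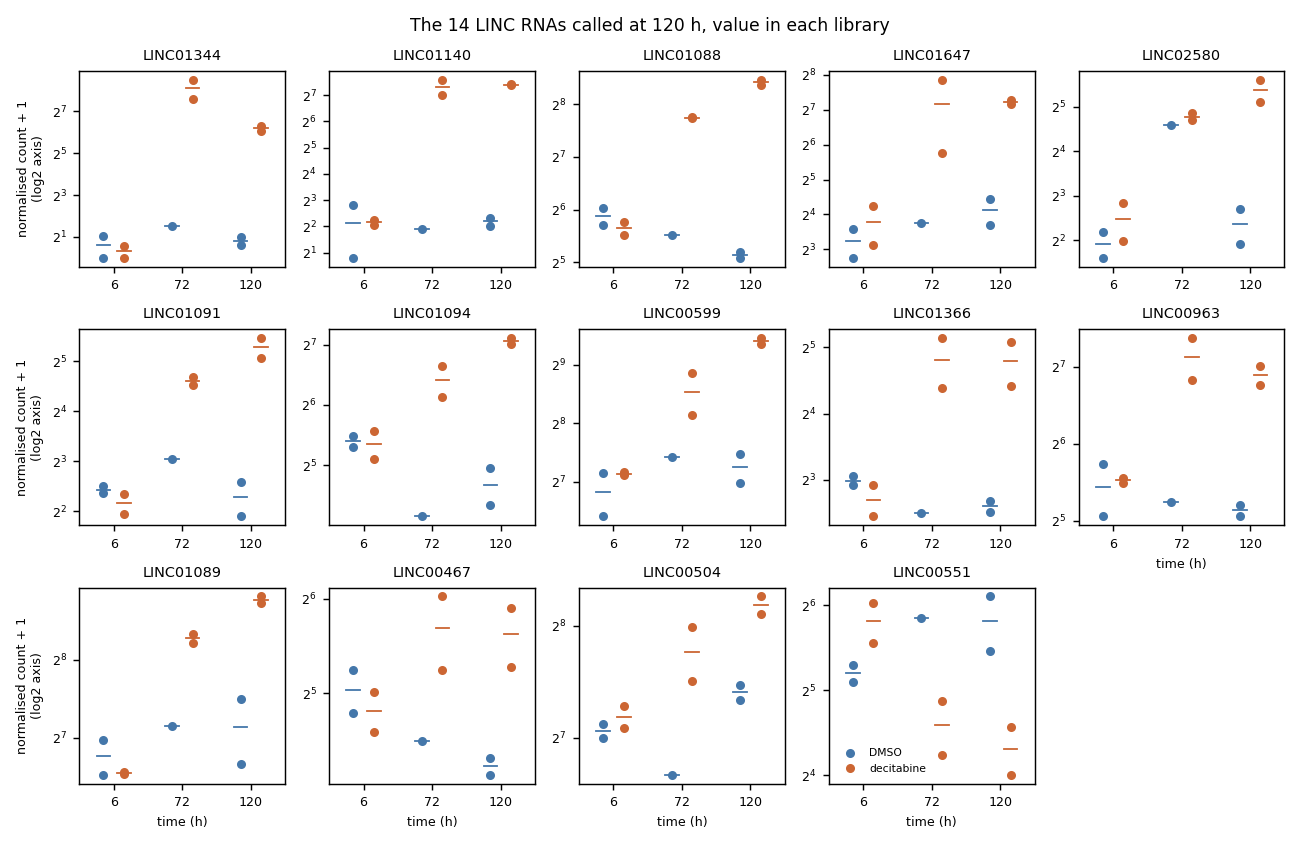
Normalised count + 1 (log2 axis, a separate range in each panel) of the 14 LINC RNAs called at 120 h, by time in hours, with 1 point per library, DMSO in blue and decitabine in orange, and a bar at each group's mean. In the 13 that rose, every late decitabine point lies above every DMSO point, and LINC00551 is the 1 that fell.

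The other 8 members that rose at 120 h did not pass the test at 72 h. LINC00599, the host of MIR124-1, was the most abundant of them, and RefSeq places it on chromosome 8 and GENCODE places the microRNA gene within its exon. It had 84.5 and 141 normalised counts with DMSO at 6 h, 171 at 72 h and 178 and 126 at 120 h, and 143 and 138, then 461 and 280, then 649 and 700 with decitabine at the same times. The decitabine values stood above the DMSO values at 72 and 120 h but not at 6 h. The log2 difference at 120 h was 2.16 (SE 0.32, adjusted p = 0.00349), a 4.44-fold ratio of means, and at 72 h it was 1.07 (SE 0.39, adjusted p = 0.207).

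LINC01089, which shares exon bases with the small GTPase gene RHOF on its strand, had 91.6 and 125 with DMSO at 6 h, 141 at 72 h and 180 and 101 at 120 h. In decitabine wells it had 92.0 and 93.6, then 319 and 297, then 446 and 422. The late decitabine pairs were tight and separate from DMSO. The log2 difference at 120 h was 1.68 (SE 0.28, adjusted p = 0.0062), with adjusted p = 0.0575 without decitabine 120 h replicate 1. RHOF had 166 and 167 with DMSO and 165 and 230 with decitabine at 120 h, a log2 difference of 0.23 (SE 0.24, adjusted p = 0.571).

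LINC01647 had 5.77 and 11 with DMSO at 6 h, 12.5 at 72 h and 11.98 and 20.9 at 120 h, and with decitabine 7.76 and 17.9, then 53.3 and 232, then 155 and 144. Its decitabine pair of 72 h was widely split, whereas that of 120 h was tight. The log2 difference at 120 h was 3.16 (SE 0.69, adjusted p = 0.0177). Leaving out either library of either 120 h group ended that call, with adjusted p from 0.0607 without DMSO 120 h replicate 2 to 0.107 without decitabine 120 h replicate 1.

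LINC02580 differed from the rest in its 72 h control. It had 2.06 and 3.55 with DMSO at 6 h, 23.1 at 72 h and 5.49 and 2.77 at 120 h, against 2.96 and 6.21, then 24.9 and 27.9, then 33.2 and 47.7 with decitabine. The single DMSO library of 72 h was thus close to the decitabine libraries of that time, and the log2 difference at 72 h was 0.18 (SE 0.61, adjusted p = 0.901). At 120 h it was 3.04 (SE 0.50, adjusted p = 0.00521), with adjusted p = 0.0533 without decitabine 120 h replicate 2.

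LINC01091 and LINC01366 were among the lowest members. LINC01091, on chromosome 4, had 4.63 and 4.13 with DMSO at 6 h, 7.21 at 72 h and 4.96 and 2.73 at 120 h, and with decitabine 2.84 and 4.10, then 22.0 and 24.7, then 32.6 and 43.2. LINC01366 had 7.30 and 6.57, 4.63, and 4.72 and 5.43 with DMSO in the same order, and 6.55 and 4.46, then 19.9 and 34.3, then 32.8 and 20.4 with decitabine. In both, the late decitabine libraries were apart from the others. At 120 h the log2 difference was 3.03 (SE 0.43, adjusted p = 0.00303) for LINC01091 and 2.15 (SE 0.45, adjusted p = 0.0152) for LINC01366. The second call was lost without any 1 of the 4 libraries of 120 h, with adjusted p from 0.0506 without decitabine 120 h replicate 2 to 0.121 without decitabine 120 h replicate 1.

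LINC00467 and LINC00504 changed least among those called higher. LINC00467 had 36.9 and 26.6 with DMSO at 6 h, 21.6 at 72 h and 18.9 and 16.6 at 120 h, and with decitabine 31.2 and 23.1, then 36.9 and 64.1, then 37.7 and 58.9. Its highest DMSO value and its lowest late decitabine value nearly met. The log2 difference was 1.36 (SE 0.39, adjusted p = 0.0465), and the call was lost in 8 of 11 fits that left out a library, with adjusted p up to 0.267 without decitabine 120 h replicate 2. LINC00504 falls outside the rule for named members and is given to complete the count. It had 161 and 177 with DMSO and 306 and 274 with decitabine at 120 h, a log2 difference of 0.78 (SE 0.22, adjusted p = 0.0446).

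LINC00551, named in RefSeq as a divergent transcript of the splicing-related gene ARGLU1, which lies 49673 bases away, was the only member that fell at 120 h. It had 33.2 and 38.3 with DMSO at 6 h, 56.6 at 72 h and 43.1 and 67.7 at 120 h. With decitabine it had 46.0 and 64.2, then 28.3 and 17.8, then 22.7 and 15.1. Its decitabine libraries were above DMSO at 6 h and below it at both later times. The log2 difference was 0.59 (SE 0.38, adjusted p = 1) at 6 h, -1.29 (SE 0.46, adjusted p = 0.194) at 72 h and -1.50 (SE 0.38, adjusted p = 0.0308) at 120 h. The 120 h call was lost in 6 of 11 fits that left out a library, with adjusted p up to 0.193 without decitabine 120 h replicate 2.

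The course over time was tested as a difference of the treatment effects. Between 72 and 120 h no member was called, with a background of 0.0% of all genes called higher or lower. At an unadjusted p below 0.05, 3 members were higher and 2 lower, where 602 and 420 of all genes were. The smallest adjusted p was 0.609, that of LINC02580. Of the 13 that rose at 120 h, 8 had the larger log2 difference at 120 h and 5 at 72 h. Between 6 and 72 h, 2 members had an effect that rose and 0 one that fell, where 0.557% and 0.0557% of all genes did. They were LINC01344, with a difference of effects of 6.79 on the log2 scale (SE 0.88, adjusted p = 0.0187), and LINC01088, with 2.44 (SE 0.35, adjusted p = 0.0263). Both lost that call in some fits. No member was called when DMSO 6 h replicate 1, either decitabine 6 h library or either decitabine 120 h library was left out. Without decitabine 72 h replicate 1 the members' median difference of effects was 0.38, against 0.14 over all genes. Without decitabine 72 h replicate 2 it was 0.24, against 0.07. Decitabine at 120 h against decitabine at 72 h gave no call among the members, where 0.124% of all genes were called higher and 0.00619% lower. The members' median difference between these times was 0.009 without decitabine 72 h replicate 1, against 0.03 over all genes. Without decitabine 72 h replicate 2 it was 0.22, against 0.004. DMSO at 120 h against DMSO at 6 h gave no call in any gene. At an unadjusted p below 0.05, 3 members were higher and 2 lower, where 479 and 386 of all genes were.

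**Figure D4:**
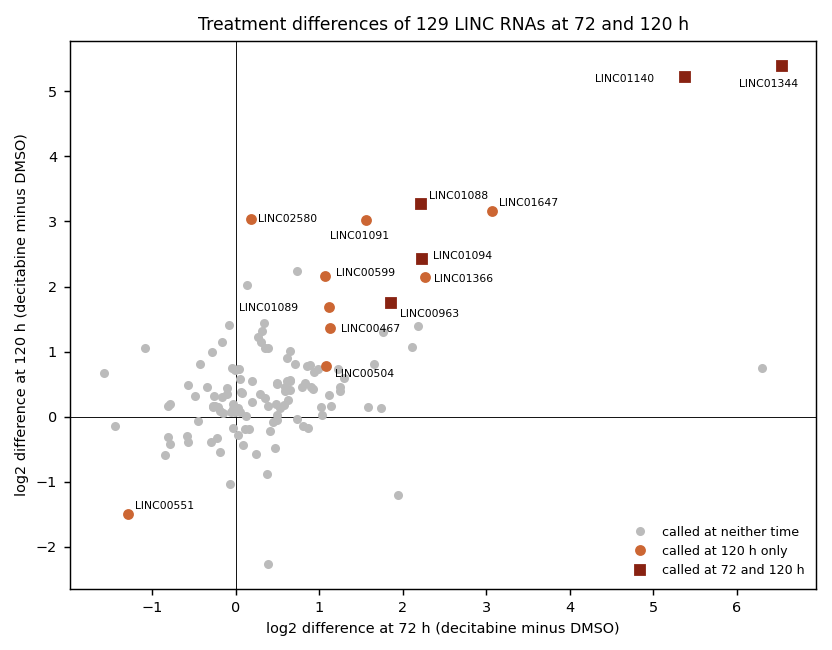
Log2 difference of decitabine minus DMSO at 120 h against that at 72 h for each of the 129 LINC RNAs, with squares for those called at both times, orange points for those called at 120 h only and grey points for the rest. LINC01344 and LINC01140 stand alone at the upper right, and LINC00551 is the only called member below 0.

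The members that were not called at 120 h numbered 115, and 97 of them had a log2 difference of less than 1 in size. Those with larger values were 15 higher and 3 lower. LINC00847 had 10.99 and 6.82 with DMSO and 40.7 and 49.1 with decitabine at 120 h, but 0.86 and 11.4 in the DMSO pair of 6 h. Its log2 difference was 2.24 (SE 0.79, adjusted p = 0.0949). LINC02606 had 0.98 and 20.1 with DMSO and 16.1 and 39.4 with decitabine at 120 h, a difference of 2.03 (SE 1.15, adjusted p = 0.284). LINC00211, listed as PIRAT1 in RefSeq, had 9.06 and 13.8 with DMSO and 30.4 and 27.5 with decitabine at 120 h, a difference of 1.29 (SE 0.49, adjusted p = 0.116). These 3 were chosen after their values were seen.

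None of the 8 most abundant members was called at any time. LINC00662 had 571 and 502 with DMSO at 6 h, 516 at 72 h and 495 and 526 at 120 h, and 463 and 536, 433 and 491, and 660 and 602 with decitabine. The 120 h pairs did not overlap, with a log2 difference of 0.30 (SE 0.17, adjusted p = 0.268). LINC02503 had 362 and 340 with DMSO and 607 and 559 with decitabine at 120 h, a difference of 0.73 (SE 0.24, adjusted p = 0.074), and 1.23 (SE 0.29, adjusted p = 0.0736) at 72 h. LINC00342 had 434 and 354 with DMSO and 296 and 232 with decitabine at 120 h, a difference of -0.58 (SE 0.21, adjusted p = 0.1). For LINC00667, LINC00680, LINC00909 and LINC00926 the log2 differences at 120 h were 0.55 (SE 0.33), -0.17 (SE 0.17), 0.11 (SE 0.23) and 0.07 (SE 0.18), each with an adjusted p above that of LINC00662.

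Among members with a mean of at least 100, the smallest differences at 120 h were those of LINC00641 and LINC01578. LINC00641 had 100 and 114 with DMSO and 115 and 100.2 with decitabine, a log2 difference of 0.01 (SE 0.24). LINC01578, or CHASERR, which is known to hold down the expression of its neighbour CHD2, had 182 and 221 with DMSO and 202 and 205 with decitabine, a difference of 0.02 (SE 0.36). At 72 h the decitabine wells of LINC01578 split to 191 and 441. At the threshold, the second-highest value over the libraries was 30.03 for LINC02731 and 30.1 for LINC00578, just inside, and 29.6 for LINC00534 and 29.6 for LINC02861, just outside.

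Neighbouring protein-coding genes were taken from RefSeq. The nearest one was tested for 83 of the 129 members, at a median distance of 27730 bases over the members, with 13 overlapping. At 120 h, 11 of the 83 rose and 1 fell, or 13.3% and 1.2%, where 9.91% and 6.0% of all genes did. For the 14 called members, 11 neighbours were tested, of which 3 rose and 0 fell. NAA11 was listed at 0 and 3.01 with DMSO at 6 h and at 0 in the other 3 DMSO libraries. With decitabine it had 3.78 and 5.04 at 6 h, 57.1 and 92.5 at 72 h and 89.7 and 87.6 at 120 h. It therefore rose together with LINC01088, whose locus it overlaps, with adjusted p = 0.00916 at 72 h and 0.000637 at 120 h, and GENCODE 29 showed no exon bases shared by the pair.

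ANXA3, an annexin gene 35547 bases from LINC01094, had 137 and 149 with DMSO and 315 and 516 with decitabine at 120 h. Its log2 difference was 1.49 (SE 0.24, adjusted p = 0.00492). CPEB2, which encodes an RNA-binding regulator of translation and lies 114312 bases from LINC00504, had 32.3 and 38.0 with DMSO and 197 and 206 with decitabine, a difference of 2.49 (SE 0.45, adjusted p = 0.00796). Both pairs were separate. In contrast, GLUL, the glutamine synthetase gene 64037 bases from LINC01344, had 3940 and 5226 with DMSO and 3774 and 4334 with decitabine at 120 h, a difference of -0.17 (SE 0.27, adjusted p = 0.727). HS2ST1, a heparan sulphate sulphotransferase gene 19783 bases from LINC01140, had 628 and 632 with DMSO and 412 and 480 with decitabine, a difference of -0.50 (SE 0.16, adjusted p = 0.0761). ARGLU1 had 4549 and 4093 with DMSO and 3284 and 3360 with decitabine, a difference of -0.38 (SE 0.30, adjusted p = 0.454).

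Some members were held by single libraries. On the value + 1 scale, 15 members (11.6%) had a duplicate pair more than 4-fold apart, against 9.36% of the 8616 other tested genes in the members' range of means. LINC01145 had 544 and 70.5 with DMSO at 6 h, 64.3 at 72 h and 105 and 1927 at 120 h, and 107 and 90.4, then 101 and 70.8, then 110 and 79.5 with decitabine. Only DMSO 6 h replicate 1 and DMSO 120 h replicate 2 were high, and the log2 difference at 120 h was -2.26 (SE 1.27, adjusted p = 0.28). GENCODE 29 places a gene of the U1 small nuclear RNA family (RF00003) over an exon of LINC01145 on the other strand, and the part of those reads in its level was not tested. LINC01709 had 701 in decitabine 72 h replicate 2 and 45.2 to 78.9 in the 10 other libraries. LINC00877 had 0.52 and 74.7 with DMSO at 6 h, 0.27 at 72 h and 60.3 and 32.3 at 120 h, and 30.2 and 0.58, 77.9 and 126, and 108 and 51.3 with decitabine. Its log2 difference of 6.30 at 72 h (SE 2.19, adjusted p = 0.185) rests on the single DMSO value. LINC00649 had 33.2 and 373 with DMSO at 120 h and 144 and 870 with decitabine at 72 h.

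**Figure D5:**
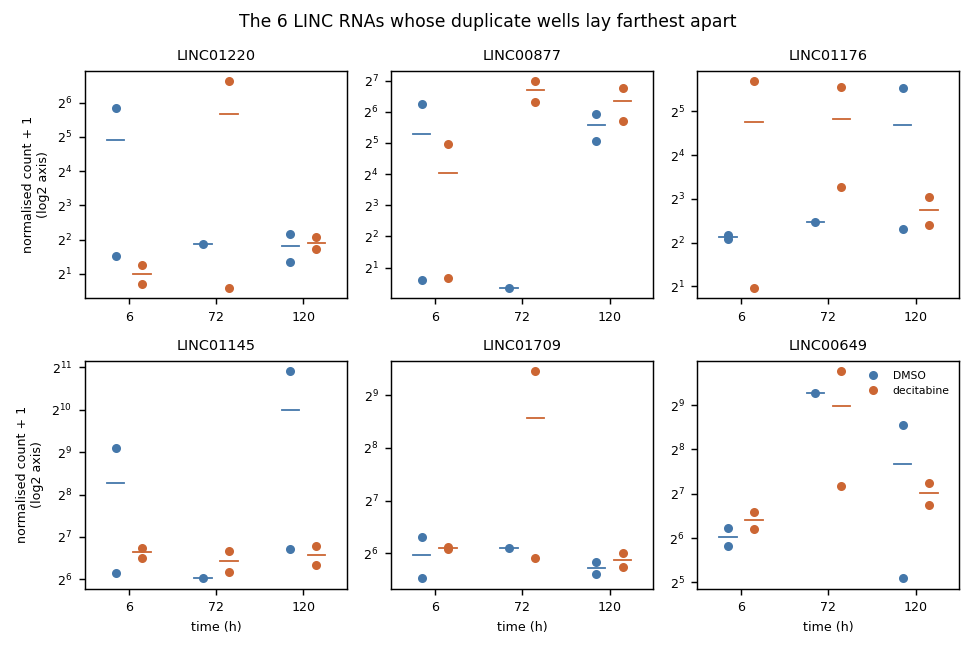
Normalised count + 1 (log2 axis, a separate range in each panel) of the 6 LINC RNAs whose duplicates lay farthest apart, by time in hours, with 1 point per library, DMSO in blue, decitabine in orange and a bar at each group's mean. LINC01145 is high in 2 DMSO libraries (544 and 1927), LINC01709 in 1 decitabine library (701), and the high well of LINC01220 is in different groups at 6 and 72 h.

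Other long non-coding RNA classes were described by the same counts at 120 h, when 9.91% of all genes rose and 6.0% fell. Of the 173 tested LINC symbols under the threshold, 12 rose (6.94%) and 2 fell (1.16%), with a median log2 difference of 0.52. Among 373 antisense RNAs 35 rose (9.38%) and 5 fell (1.34%), with a median of 0.43, and among 63 divergent transcripts 2 rose (3.17%) and 0 fell, with a median of 0.52. The 23 small nucleolar RNA hosts of the SNHG series had 0 higher and 5 lower (21.7%), with a median of -0.46. Of 28 microRNA hosts 5 rose (17.9%) and 1 fell (3.57%), with a median of 0.23. Of 32 well-studied long non-coding RNAs, 29 were tested, 5 rose (17.2%) and 3 fell (10.3%). MIR22HG (2.74), HOTAIRM1 (1.83), LUCAT1 (1.76), NEAT1 (1.68) and MIR223HG (1.28) rose, and FIRRE (-1.93), DANCR (-0.93) and MIR17HG (-0.76) fell, with log2 differences in parentheses. The well-studied list overlaps the other classes, since MIR22HG, MIR223HG and MIR17HG also count as microRNA hosts and OIP5-AS1 also counts as antisense. These classes were not tested against the LINC members.

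Estimated depth was 14427331 to 32908419 counts per library, and 1 count was worth 0.407 to 0.961 normalised units. The transcript FP671120.7 made up 3.89 to 10.9% of the total in the 120 h libraries, 5.25% in decitabine 72 h replicate 1 and 0.0424 to 0.794% in the others, and its part in the members' normalised values was not tested. All 10 HL-60 promyelocytic markers passed the filter, and they summed to 136200 to 210600 with DMSO and 112900 to 157300 in the late decitabine libraries. They did not all move alike. MYC had 11410 to 14310 with DMSO and 2839 to 3872 in the late decitabine libraries. ELANE had 516.9 to 908.9 and 155.8 to 455.6, and CEBPE had 1299 to 1505 and 2487 to 2685. For the rest these ranges overlapped. Markers of other cell types were low, with ALAS2, HBA1, HBA2, HBB and COL3A1 at 0 in every library. The 4 B cell markers summed to 0.638 to 6.56 with DMSO and 13.1 to 25.9 in the late decitabine libraries, and the 4 epithelial markers to 10.3 to 22.0 and 28.8 to 61.6. The T cell markers summed to 14.97 to 25.8 and 22.7 to 40.8, the erythroid markers to 8.92 to 17.3 and 6.98 to 13.5, and the fibroblast markers to 5.12 to 17.1 and 6.598 to 14.6. The part of such cells or genes in the LINC results was not tested.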

How the data were processed

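RNA-seq of HL-60 cells was analysed from 1 deposited table of normalised signal. Per the submitters' processing notes, the tools were Salmon 1.2.1, DESeq2, limma, STAR and featureCounts, in no stated order, on hg38. The values look like estimated counts that the authors divided by a size factor per library: 59.4 to 65.5% of low values per library were whole multiples, within 0.01, of one step, so whole reads could not be recovered and no count test was run. The file header names 12 libraries, but only 11 values follow the identifier and symbol of a gene. Its first name was matched to the symbol field, which leaves DMSO 72 h replicate 2 without values (not analysed here), and every result rests on that reading.

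The 16152 genes that reached 10 in 2 or more libraries were put on the log2(value + 1) scale, which understates changes of low genes. Group means were fitted to all 11 libraries with limma 3.58.1 (trend) in R 4.3.3, with 5 residual degrees of freedom and Benjamini-Hochberg adjustment over all genes. Tests were two-sided, and calls needed an adjusted p below 0.05. The script was tested on simulated data. Members, marker lists and RNA classes were chosen with earlier results of these data known. Named members were the 8 most abundant, up to 12 called higher and 8 lower at 120 h, up to 8 and 4 at 72 h, the 2 widest in each direction at 6 h, and those at the threshold or with the smallest differences. Alternatives covered pseudocount, filter, scaling, variance model, controls, pairing and left-out libraries. Figures were drawn with matplotlib 3.10.9.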

Additional observations from a re-analysis of the deposited data

Results flagged for a closer look

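The decitabine effect on LINC01344 differed between 6 and 72 h by 6.79 on the log2 scale (adjusted p = 0.0187 by limma), which is a difference between time points under the same contrast. Both decitabine libraries of 72 h were above the DMSO library, and the 6 h values were between 0 and 1.08. LINC01344 had entered the members through the decitabine libraries alone. The effect on LINC01088 differed between the same times by 2.44 (adjusted p = 0.0263), with 213 and 215 normalised counts against 45.0 at 72 h and overlapping groups at 6 h.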

How the results depend on the processing

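Counts of LINC members called were recomputed under other settings, with 13 higher and 1 lower at 120 h and 5 higher and 0 lower at 72 h as the values reported. The share of all genes called moved too. At 120 h it was 9.91% higher as reported, 16.8% with sample weights, 14.4% with the spread of that time alone and 15.2% with all DMSO libraries as control. At 72 h it was 1.88% higher as reported, 1.76% after quantile normalisation, 0.464% with sample weights and 10.7% with all DMSO libraries as control. The share of all genes called lower at 120 h was 6.0% as reported and 1.84% without a filter on low values. It was 14.4% with sample weights and 11.6% with all DMSO libraries as control. At 72 h the share called lower was 0.31% as reported and 7.35% with all DMSO libraries as control. At 120 h the number higher was 25 with sample weights, 21 with the spread of that time alone, 31 with all DMSO libraries as control and 7 to 22 when 1 library was left out. The number lower was 0 without a filter on low values, 3 with sample weights, 2 with all DMSO libraries as control and 0 to 3 with 1 library left out. At 72 h the number higher was 3 after quantile normalisation, 1 with sample weights, 0 with the spread of that time alone, 17 with all DMSO libraries as control and 3 to 26 with 1 library left out, and the number lower was 3 with all DMSO libraries as control and 0 to 4 with 1 left out. For the effect at 72 h against that at 6 h, 2 were higher, against 1 with equal totals, 0 with sample weights, 1 with the replicate block and 0 to 21 with 1 left out, and 0 to 3 were lower with 1 left out. For the effect at 120 h against that at 72 h, leaving out 1 library gave 0 to 1 higher and 0 to 4 lower, and for decitabine at 120 against 72 h it gave 0 to 9 and 0 to 10. The cause was not tested. Leaving out 1 library moved the share of all genes called as well, so these ranges were not shown to be particular to the LINC members. Left-out fits have fewer samples, and those without a decitabine 72 h library do not hold the spread of that pair. Over all tested genes that pair was the widest, with a median absolute log2 gap of 0.59. In the other pairs it was 0.19 to 0.26.

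Same-numbered wells did not pair: the correlation of their deviations from the group means was -0.0777 to 0.124 over 10 pairs of groups, and 2 were over 0.1. With the replicate block, 12 members were higher and 1 lower at 120 h and 4 and 0 at 72 h. The log2 difference of LINC01176 at 6 h reversed when 1 library was left out, with a range from -1.17 (without decitabine 6 h replicate 1) to 3.56 (without replicate 2). LINC00467 at 120 h lost its call under 4 of 11 other settings, LINC00963 at 72 h under 7, LINC01094 at 72 h under 3, LINC01140 and LINC01088 at 72 h under 2 each, and LINC01344 at 72 h, LINC00551 at 120 h and LINC01647 at 120 h under 1 each. Without a filter on low values the limma adjusted p of LINC01647 was 0.0578. Without DMSO 72 h replicate 1 no 72 h value could be given. A value of 30 stands for 31.2 to 73.7 estimated reads, so members at the threshold carry wide counting error.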

Other observations

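Of the 13 LINC RNAs that rose at 120 h, 4 lie on chromosome 1 (LINC01344, LINC01140, LINC01647 and LINC00467) and 4 on chromosome 4 (LINC01088, LINC01094, LINC01091 and LINC00504). These chromosomes hold 18 and 10 of the 129 members. LINC01344, LINC01140, LINC01647, LINC00467 and LINC01091 entered through the decitabine libraries alone, so the rule favoured a rise in them. The positions were looked at after the values were seen and were not tested. Of the 15 members with duplicates more than 4-fold apart, 10 share exon bases with another gene in GENCODE 29, as do 51 of all 129 members. LINC01140 and LINC01647, 2 of the 15, were called at 120 h.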
